A study of Homo sapiens with 16 samples.

Results

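The comparison was between OCI-AML3 cells given Am80 with GSK-LSD1 and MB3 and OCI-AML3 cells given ATRA with the same inhibitors, after 3 h. It used 6 of 16 RNA-seq libraries, 3 for each combination, and it covered 14508 of 62700 genes, those whose normalized counts averaged 10 or more in these 6 libraries. OCI-AML3 is an established human acute myeloid leukemia (AML) cell line, so all values describe 1 line. ATRA and Am80 were each given at 0.1 µM, GSK-LSD1 at 0.1 µM and MB3 at 100 µM, so that dose and time were matched and the retinoid was the labelled difference between the groups. The other libraries came from untreated cells (4), from cells with ATRA (3) and from cells with Am80 (3). No group had GSK-LSD1 and MB3 in the absence of ATRA or Am80, so what these inhibitors did by themselves cannot be told apart from their joint effect with the retinoid. Nothing in the labels says that replicates came from separate cultures, so p-values measure the spread between libraries, which may be technical.

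ATRA is a polyene carboxylic acid derived from vitamin A, with a trimethylcyclohexenyl ring, and it activates all retinoic acid receptors (RARA, RARB and RARG). Am80 (tamibarotene) is a synthetic benzoic acid joined through an amide to a tetramethyl tetralin ring, and it prefers RARA. RARs bind DNA with a retinoid X receptor (RXR) and exchange corepressors for coactivators once the ligand is bound. GSK-LSD1 inhibits LSD1 (KDM1A), which removes methyl groups from lysine 4 of histone H3, and MB3 inhibits the acetyltransferase GCN5 (KAT2A). The comparison asked whether an RARA-selective retinoid and a pan-RAR retinoid gave the same early transcript response under these inhibitors. It held 1 pair of compounds, measured with and without the inhibitors.

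The combination libraries held 14118272 to 18884805 reads on genes, within a range of 11963898 to 33789718 over all 16. Between replicates of a combination, the median standard deviation of a gene was 0.104 (Am80) and 0.102 (ATRA) on the log2 scale, against 0.159 in untreated cells, where replicate 4 stood apart, and 0.143 with Am80 alone, where replicate 2 did. All 9 AML and myeloid markers were expressed (CD33, MPO, HOXA9 and MEIS1 among them), with summed normalized counts of 27598 to 28881 per library. Marker lists of other cell types had low sums per library, of 0 to 2.27 (erythroid) and 6.52 to 13.7 (epithelial). The sums were 32.6 to 46.9 for T and NK cell, 42.6 to 62.5 for B cell, 59.1 to 74.5 for megakaryocyte and 66.3 to 88 for fibroblast markers. Of these, 1 T and NK cell, 1 B cell, 2 megakaryocyte and 1 fibroblast marker averaged over 10 normalized counts. HBA1, HBA2, CD3D, CD3E, CD3G, EPCAM and CDH1 were among the markers with no read in the 6 libraries.

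No gene differed between the combinations at an adjusted p under 0.05 in the limma fit over all 16 libraries. The smallest adjusted p was 0.115 (limma, Benjamini-Hochberg over 14508 genes), and the share called was 0%. At an unadjusted p under 0.05, 1601 genes (11%) were higher with Am80 and 1032 (7.11%) were lower. edgeR called 0 genes and DESeq2 88 (73 higher, 15 lower). The differences were small: the median absolute log2 difference was 0.136, 168 genes (1.16%) were past 1.5-fold higher and 251 (1.73%) past 1.5-fold lower, and 38 were past 2-fold in either direction. For 71.3% of genes the 95% confidence interval of the difference lay inside 1.5-fold in either direction, and for 91.6% inside 2-fold; 7 genes had an interval wholly outside 1.5-fold.

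This count rested on the libraries that set the spread. With only the 6 combination libraries in the fit, 1979 genes passed (1382 or 9.53% higher, 597 or 4.11% lower, 13.6% in all), and without untreated replicate 4 and Am80 replicate 2, the libraries farthest from their groups, 2314 passed (15.9%), or 898 (6.19%) with a trend in GC content removed. Leaving out untreated replicate 4 alone gave 652 and leaving out Am80 replicate 2 alone 241. The unadjusted counts were 762 higher and 566 lower without Am80 combination replicate 1, and 604 lower without ATRA combination replicate 1. In 2399 genes (16.5%) all 3 Am80 combination libraries lay above all 3 ATRA combination libraries, and in 2019 (13.9%) below. With that trend removed, these were 1947 (13.4%) and 1154 (7.95%). An exact permutation test of 3 against 3 cannot go below p = 0.1, so non-overlap is given as a count and not as a test.

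A trend with the GC content of genes ran through this comparison. The median difference went from -0.11 on the log2 scale in genes with up to 40% GC (2326 genes) to 0.26 in genes over 65% (445 genes), and across genes the correlation of GC content with the difference was 0.466, as a description of these libraries. Each library had a GC slope against the mean of all libraries. It was -0.027, -0.069 and -0.090 log2 units per 10 points of GC in the Am80 combination libraries and -0.174, -0.211 and -0.188 in the ATRA combination libraries, so these slopes did not overlap, and a GC bias of the libraries cannot be told apart from the retinoid. Without the inhibitors the trend ran the other way, with a median of 0.097 in the lowest class and -0.080 in the highest. With the GC trend removed from each library (a spline with 5 degrees of freedom), limma again called 0 genes, with 1315 higher (9.06%) and 727 lower (5.01%) at an unadjusted p under 0.05. With the 6 combination libraries only and the trend removed, 541 passed (475 higher, 66 lower, 3.73%). Scaling to total reads in place of the deposited factors turned the balance of directions, to 1161 higher and 1455 lower, and quantile normalization gave 1307 and 1227.

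**Figure D1:**
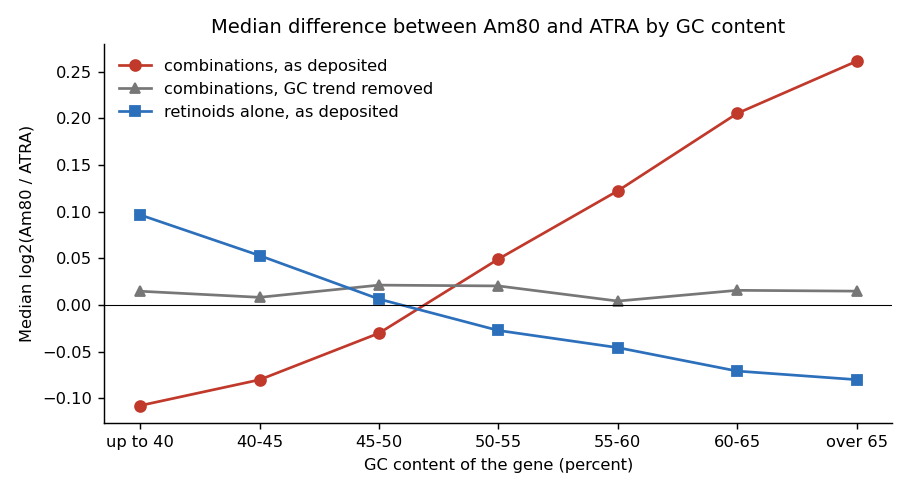
Median log2 difference between Am80 and ATRA (vertical axis) in 7 classes of gene GC content in percent (horizontal axis), for the combinations as deposited (circles), the combinations with the GC trend removed (triangles) and the retinoids alone (squares). The combination medians rise from -0.11 to 0.26 across the classes, those of the retinoids alone fall from 0.097 to -0.080, and the corrected medians stay near 0.

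No retinoid receptor target gene passed the test over 16 libraries, and the best known of them (CYP26A1, RARB, TGM2 and DHRS3) had far higher counts in both combinations than in untreated cells. CYP26A1, the enzyme that breaks down retinoic acid, had no read in the 4 untreated libraries. It had 57, 50.9 and 70.8 normalized counts with the Am80 combination and 53.7, 46.7 and 55.7 with the ATRA combination, a log2 difference of 0.18 (95% interval -0.22 to 0.59, Am80 minus ATRA here and throughout). The groups overlapped. RARB, itself a receptor and a direct target, averaged 5.19 normalized counts in untreated cells. It had 93.2, 125 and 131 with Am80 and 112, 99.99 and 125 with ATRA, a difference of 0.041 (-0.39 to 0.48), again with overlapping groups. Both genes carry a retinoic acid response element before their start, which is shown to place the receptors' known contact. The lines give the 250 bases before the RefSeq gene start (GRCh38.p14), 5′ to 3′ on the gene's strand, with capitals for GTTCA, any 6 bases and GTTCA again, on either strand.
CYP26A1, chr10:93073643-93073892, plus strand: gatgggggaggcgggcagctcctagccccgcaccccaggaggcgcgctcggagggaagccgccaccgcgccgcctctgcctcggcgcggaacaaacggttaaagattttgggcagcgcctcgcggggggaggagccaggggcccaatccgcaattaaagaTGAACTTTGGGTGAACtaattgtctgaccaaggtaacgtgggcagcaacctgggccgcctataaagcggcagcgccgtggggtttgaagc
RARB, chr3:25428013-25428262, plus strand: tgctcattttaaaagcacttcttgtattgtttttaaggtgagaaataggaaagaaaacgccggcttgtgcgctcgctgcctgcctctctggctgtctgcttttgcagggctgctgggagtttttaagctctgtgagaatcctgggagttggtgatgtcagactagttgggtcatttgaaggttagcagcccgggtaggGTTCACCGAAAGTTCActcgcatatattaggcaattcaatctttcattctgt
These letters were in 0.0484% of all 35116 promoter windows, and in 2 of the 18 tested target genes with a window, which were these.

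Of 30 listed target genes, 24 were tested, and 15 were higher with Am80. The median log2 difference was 0.09, or 0.011 with the GC trend removed, against -0.0037 and 0.012 over all genes. At an unadjusted p under 0.05, 4 were higher (background 11%) and 2 lower (background 7.11%), and with the GC trend removed 0 were higher and 2 lower. In the limma fit over 16 libraries none had an adjusted p under 0.05. With the 6 combination libraries only, 2 of 24 passed as higher (background 9.53%) and 2 as lower (background 4.11%; 0 and 0 with the GC trend removed), and without untreated replicate 4 and Am80 replicate 2, 3 and 2 (0 and 1), while DESeq2 called 0. TGM2, a transglutaminase, had 6489.7, 6417 and 6335 normalized counts with Am80 and 6837, 5474 and 6761 with ATRA against a mean of 84.1 in untreated cells. Its difference was 0.02 (-0.17 to 0.21), so the interval excludes a difference of more than 0.21 on the log2 scale in either direction. DHRS3, which turns retinal back into retinol, had 1641, 1726 and 1662 with Am80 and 1757, 1369 and 1679 with ATRA, a difference of 0.07 (-0.23 to 0.38). The ATRA combination replicate 2 was the lowest of the 6 for both genes, and without it the list median went to -0.035.

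The retinoic acid hydroxylase gene CYP26B1 had 109.6, 126 and 124 normalized counts with Am80 and 151, 119.6 and 143 with ATRA, a difference of -0.20 (-0.66 to 0.27). Removing the GC trend gave -0.30, and the groups, which overlapped as deposited, were then apart. Without inhibitors it was 389 ± 56.8 with Am80 and 572 ± 41 with ATRA (mean ± SD, n = 3 each), a difference of -0.57. So it was lower in both combinations than with either retinoid alone. The kinase gene FGR differed by 0.11 (-0.09 to 0.32) and the repressor gene HIC1 by 0.20 (-0.18 to 0.58), and both differences turned sign and were near 0 with the GC trend removed (-0.0034 and -0.0058). Targets with an unadjusted p under 0.05 included TNFAIP2 (0.28), TNFSF10, which encodes the death ligand TRAIL (-0.31), CD38, a surface enzyme induced by retinoids (-0.17), ICAM1, an adhesion molecule (0.23) and RARA (0.23). Their adjusted p-values were 0.148, 0.154, 0.219, 0.224 and 0.241 (limma). CD38 was 4829, 5028 and 5266 with Am80 and 5529, 5568 and 5947 with ATRA, the groups apart. With the GC trend removed, its difference was -0.08 and the groups overlapped. A further 10 targets (ASB2, CRABP2, DHRS9, LILRA5, NRIP1, PLAAT4, PRAM1, PTGES, SMAD3 and STRA6) differed by -0.11 to 0.33, each with an interval that included 0. CYP26C1 had at most 2 reads in any of the 6 libraries.

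Genes that both retinoids raised without inhibitors also had a median near 0. These 467 genes were chosen on the contrasts of ATRA and Am80 with untreated cells (adjusted p under 0.05 and a log2 change over 1 in both, limma) and not on a contrast of the combinations. Their median combination difference was 0.03, or -0.0038 with the GC trend removed. Of these, 48 (10.3%) were higher with Am80 and 23 (4.93%) lower at an unadjusted p under 0.05, no more than the background of 11% and 7.11%. For the 70 genes lowered by both retinoids the median was -0.05, or -0.11 without ATRA combination replicate 3, -0.079 without Am80 combination replicate 3 and -0.085 when scaled to total reads. Here 4 (5.71%) were higher and 11 (15.7%) lower at an unadjusted p under 0.05, so the lower share was above the background. With the GC trend removed these were 5 (7.14%) and 7 (10%), against 9.06% and 5.01%. With the 6 combination libraries only, 3 passed as higher (background 9.53%) and 0 as lower (background 4.11%).

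The 5 tested receptor genes were all higher with Am80, by small amounts. At an unadjusted p under 0.05, 3 were higher (RARA, RXRA and RXRB, background 11%), and 1 with the GC trend removed (background 9.06%). RARA had 2767, 2826 and 2762 normalized counts with Am80 and 2426, 2289 and 2424 with ATRA, against a mean of 959.5 in untreated cells, a difference of 0.23 (0.02 to 0.43) that was 0.026 with the GC trend removed. RXRA (0.18) likewise went to 0.016, whereas RXRB kept 0.19 of 0.33. RARG had 114, 113 and 115 with Am80 and 114, 104 and 114 with ATRA, a difference of 0.04 (-0.19 to 0.27), which turned to -0.12 with the GC trend removed. Adjusted p-values (limma) of the 5 tested receptors were 0.158 and above. With the 6 combination libraries only, 3 passed as higher (background 9.53%), or 0 with the GC trend removed (3.27%). Without untreated replicate 4 and Am80 replicate 2, 3 passed (10.9%), or 0 with the GC trend removed (4.85%). DESeq2 called 0. RXRG had at most 1 read.

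Heat shock genes gave the largest list median of the 30 lists examined. Their proteins fold or refold other proteins, and HSF1 drives them under protein stress. Of 35 listed, 30 were tested, 29 were higher with Am80, and the median log2 difference was 0.24 (0.27 with the GC trend removed). At an unadjusted p under 0.05, 21 were higher (background 11%) and 0 lower, and with the GC trend removed 25 were higher (background 9.06%). In the limma fit over 16 libraries none passed an adjusted p under 0.05. With only the 6 combination libraries in the fit, 19 passed, all higher with Am80 (background 9.53%), and 16 with the GC trend removed (background 3.27%). Without untreated replicate 4 and Am80 replicate 2, 20 passed (background 10.9%), and 21 with the GC trend removed (background 4.85%). DESeq2 called 6, all higher (background 0.503%). Among them were HSPA6 (adjusted p = 0.000607, DESeq2), DNAJB1 and BAG3 (both 0.0196, DESeq2).

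The list mean was not apart between the combinations. As deviations from the 6-library mean on the log2 scale, it was 0.18, 0.19 and 0.03 in the Am80 combination replicates 1, 2 and 3 and -0.25, 0.038 and -0.18 in the ATRA combination replicates. ATRA replicate 2 thus lay slightly above Am80 replicate 3, and replicates of the ATRA combination by themselves spanned most of the range. HSPA6, a stress-induced HSP70, had 772, 636 and 520.1 normalized counts with Am80 and 273, 448 and 278 with ATRA, 1.95-fold (log2 0.97, 0.59 to 1.35, adjusted p = 0.115, limma). Its groups did not overlap. It averaged 126 in untreated cells. Its reads may be shared with the near-identical HSPA7. DNAJB1, an HSP40 co-chaperone, had 26831, 23057 and 20202 with Am80 and 12503, 20236 and 14924 with ATRA against 3496 in untreated cells. Here the highest ATRA library just passed the lowest Am80 library. The ubiquitin gene UBB had 12795, 11754 and 9633 with Am80 and 7333, 8859 and 8788 with ATRA, and BAG3, a cofactor of HSP70, 3270.1, 3238 and 2869.7 with Am80 and 2108, 2717 and 2282 with ATRA. Both pairs of groups were apart, and with the GC trend removed those of BAG3 overlapped. The promoters of HSPA6 and DNAJB1 are shown because they had the largest differences among members with a heat shock element in the window, marked by capitals for GAANNTTC or TTCNNGAA (each reads the same on both strands).
HSPA6, chr1:161524290-161524539, plus strand: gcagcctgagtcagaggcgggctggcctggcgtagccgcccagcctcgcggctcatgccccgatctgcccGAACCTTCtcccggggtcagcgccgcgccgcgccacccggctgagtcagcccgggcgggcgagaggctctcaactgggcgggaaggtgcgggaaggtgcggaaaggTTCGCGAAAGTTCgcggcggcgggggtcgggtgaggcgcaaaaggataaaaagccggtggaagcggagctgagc
DNAJB1, chr19:14518398-14518647, minus strand: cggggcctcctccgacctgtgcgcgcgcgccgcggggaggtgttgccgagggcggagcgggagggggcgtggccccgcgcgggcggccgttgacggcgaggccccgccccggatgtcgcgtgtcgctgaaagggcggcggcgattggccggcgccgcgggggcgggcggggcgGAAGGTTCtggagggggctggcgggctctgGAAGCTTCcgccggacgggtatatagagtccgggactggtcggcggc
Of 27 tested heat shock genes with a window, 14 held such letters (51.9%), against 12% of 10394 tested genes with a window and 11.6% of all windows. The median difference was 0.23 in those 14 and 0.24 in the other 13.

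**Figure D2:**
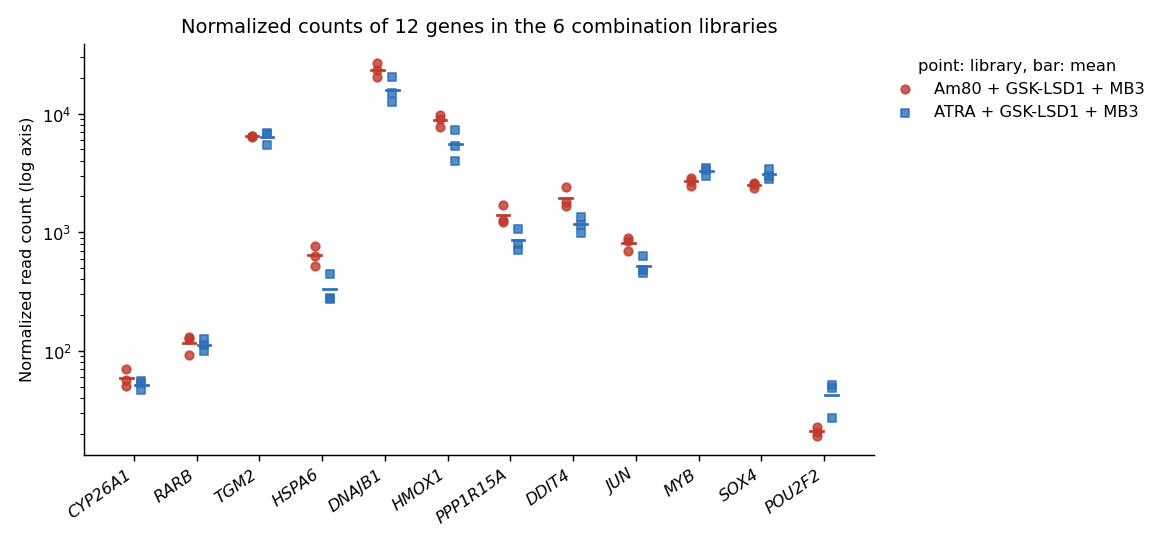
Normalized read counts (vertical log axis) of 12 genes in the 3 Am80 combination libraries (circles) and the 3 ATRA combination libraries (squares), with a bar at each mean. CYP26A1, RARB and TGM2 overlap between the groups, HSPA6, HMOX1, PPP1R15A, DDIT4 and JUN lie higher with Am80, MYB, SOX4 and POU2F2 lie lower, and DNAJB1 overlaps in 1 pair of libraries.

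The genes of ATF4 and the integrated stress response were also higher with the Am80 combination. Kinases that sense amino acid shortage, unfolded protein or heme shortage start this program by slowing translation. Of 39 tested genes 34 were higher, with a median of 0.19 (0.14 with the GC trend removed), and 19 were higher and 0 lower at an unadjusted p under 0.05 (17 and 0 with the GC trend removed), against 11% and 7.11% of all genes (9.06% and 5.01%). In contrast to the heat shock genes, the list mean was apart, at 0.23, 0.09 and 0.031 in the Am80 combination libraries and -0.18, -0.022 and -0.15 in the ATRA combination libraries. Means apart were common among the lists examined. Those of p53 target, cholesterol synthesis, glycolysis and hypoxia, lysosome and metallothionein genes were also apart, as deposited and with the GC trend removed. So were those of proteasome, ribosomal protein, respiratory chain, and stem and progenitor genes. PPP1R15A (GADD34), which restores translation by dephosphorylating eIF2α, had 1688, 1271 and 1223 normalized counts with Am80 and 712, 1059.7 and 791 with ATRA, 1.64-fold. This was a log2 difference of 0.71 (0.44 to 0.98, adjusted p = 0.115, limma; 0.57 with the GC trend removed). DDIT4 (REDD1), an inhibitor of mTORC1, had 2381, 1812 and 1669 with Am80 and 1154, 1349 and 991 with ATRA, 1.67-fold, and averaged 175 in untreated cells. Its difference was 0.74 with the inhibitors and -0.09 without them. SESN2, which couples leucine to mTORC1, had 1005, 918 and 884 with Am80 and 657, 737 and 691 with ATRA. PHGDH, the entry enzyme of serine synthesis, had 3227, 2895 and 2733 with Am80 and 2276, 2305 and 2205 with ATRA. In these 4 genes all Am80 libraries lay above all ATRA libraries, also with the GC trend removed. With DESeq2 7 of the 39 passed, all higher (background 0.503%), DDIT4 among them (adjusted p = 0.000607, DESeq2). With the 6 combination libraries only 15 passed (background 9.53%), or 7 with the GC trend removed (3.27%). Without untreated replicate 4 and Am80 replicate 2, 16 passed (background 10.9%), or 9 with the GC trend removed (4.85%).

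Among tested members with the letters TGATGNAA (an ATF4 element, either strand) before the start, SLC1A5, a glutamine carrier, had the smallest p-value and is shown with the element in capitals.
SLC1A5, chr19:46784815-46785064, minus strand: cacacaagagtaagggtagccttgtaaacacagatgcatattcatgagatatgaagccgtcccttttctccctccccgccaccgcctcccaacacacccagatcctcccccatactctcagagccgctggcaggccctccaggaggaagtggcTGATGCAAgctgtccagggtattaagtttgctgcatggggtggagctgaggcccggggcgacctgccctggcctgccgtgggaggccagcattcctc
Of 33 tested ATF4 genes with a window 8 held these letters (24.2%), against 2.29% of all tested genes with a window and 3.14% of all windows. SLC1A5, named after its values were seen, had 3018, 2799.8 and 2472 normalized counts with Am80 and 2279, 2289 and 2212 with ATRA, a difference of 0.29 that was 0.11 with the GC trend removed, where the groups overlapped. PPP1R15A, DDIT4, SESN2 and PHGDH had no match in their windows.

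NRF2 targets, which detoxify electrophiles and oxidants, had a smaller median. Of 39 tested genes 31 were higher with Am80, with a median of 0.13 (0.12 with the GC trend removed), and 11 were higher (background 11%) and 0 lower (background 7.11%) at an unadjusted p under 0.05. In the limma fit over 16 libraries 0 passed an adjusted p under 0.05. With the 6 combination libraries only, 14 passed, all higher (background 9.53%), or 8 with the GC trend removed (3.27%). Without untreated replicate 4 and Am80 replicate 2, 13 passed (10.9%), or 8 with the GC trend removed (4.85%). DESeq2 called 2 (0.503%). The list mean overlapped, at 0.10, 0.11 and -0.006 with Am80 and -0.14, 0.029 and -0.08 with ATRA. HMOX1, which breaks down heme, had 9662, 8919 and 7763 normalized counts with Am80 and 4011, 7287 and 5284 with ATRA against a mean of 157 in untreated cells. The difference was 0.70 (0.34 to 1.07, adjusted p = 0.121, limma) with the inhibitors and 0.011 without. ATRA replicate 2 was the nearest to the Am80 libraries, as it was for HSPA6, DNAJB1 and PPP1R15A. SQSTM1, an autophagy receptor, differed by 0.37, the NRF2 partner MAFG by 0.30 and the pentose phosphate enzyme PGD by 0.21. With the GC trend removed these were 0.24, 0.19 and 0.18, and of these and HMOX1 only PGD kept its groups apart.

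**Figure D3:**
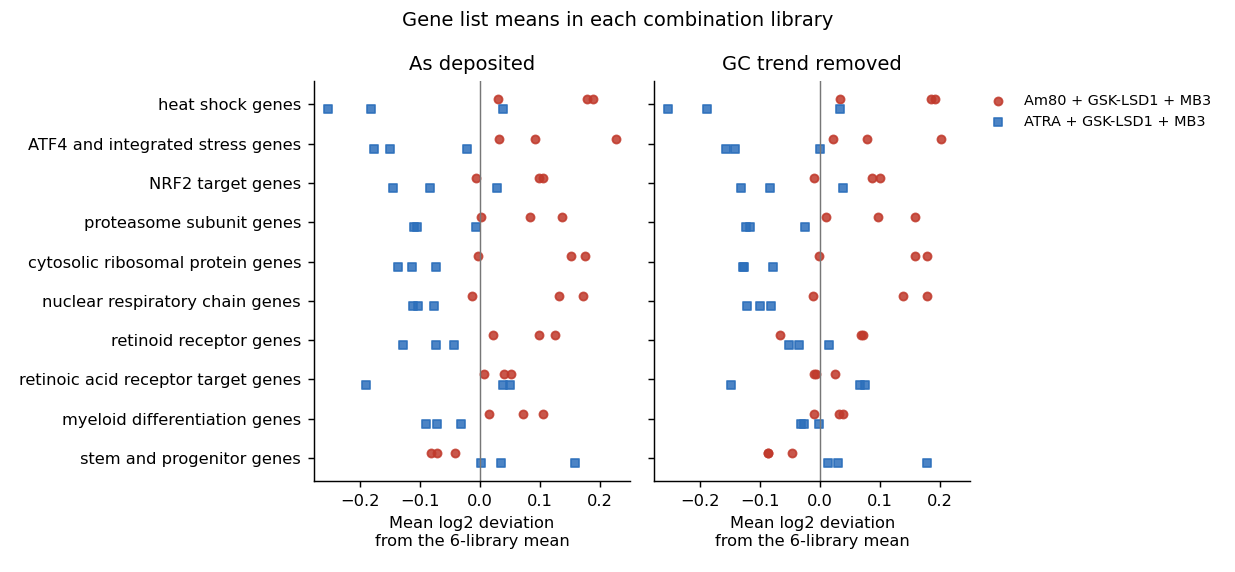
Mean log2 deviation of the tested genes of 10 lists from their 6-library mean (horizontal axis) in each Am80 combination library (circles) and ATRA combination library (squares), as deposited (left) and with the GC trend removed (right). Heat shock and NRF2 genes overlap between the groups in both panels, ATF4, proteasome, ribosomal protein and respiratory chain genes do not, and the retinoid receptor and myeloid lists are apart only as deposited.

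Immediate early and p53 target genes held several of the strongest single differences. JUN, a subunit of AP-1, had 890.1, 844 and 697 normalized counts with Am80 and 456, 636 and 477 with ATRA. Its difference was 0.64 (adjusted p = 0.121 with limma and 0.0196 with DESeq2). IER5, which activates HSF1, differed by 0.54 and IER2 by 0.39. SERTAD1, a cell cycle coregulator, had 442, 367 and 341 with Am80 and 222, 254 and 200.05 with ATRA, 1.7-fold. CDKN1A, the inhibitor p21, had 2485, 2214 and 1952 with Am80 and 1642, 1704 and 1706 with ATRA, and BBC3, the death-promoting PUMA, 486, 466 and 404 with Am80 and 360.3, 343 and 265 with ATRA. All 6 had their groups apart, and IER2 and BBC3 overlapped once the GC trend was removed. As lists, the immediate early median went from 0.16 to 0.044 with the GC trend removed, and the p53 median from 0.08 to 0.10. At an unadjusted p under 0.05, 9 of 31 immediate early genes were higher and 0 lower, as deposited and with the GC trend removed. Of 30 p53 targets 11 were higher and 1 lower, or 8 and 1 with the GC trend removed. The background was 11% higher and 7.11% lower (9.06% and 5.01% with the GC trend removed). DESeq2 called 3 in each list, all higher (background 0.503%). The zinc finger repressor gene SNAI1 differed by 0.49 (adjusted p = 0.131) and averaged 161 in untreated cells against 734 ± 74.9 and 525 ± 73.6 (mean ± SD, n = 3) in the combinations.

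Among genes that averaged 50 or more, the 8 smallest p-values with higher values under Am80 belonged to PPP1R15A, HSPA6, DDIT4, UBB, SESN2 and SERTAD1, described above, and to DHRS4L2 and HLA-E. DHRS4L2, a dehydrogenase gene that shares sequence with DHRS4, had 151, 148 and 133 normalized counts with Am80 and 101, 91.3 and 94.3 with ATRA. HLA-E, a class I molecule read by natural killer cells, had 2041, 1825 and 1685 with Am80 and 1348, 1399 and 1358 with ATRA. Their differences were 0.59 and 0.43, and 0.44 and 0.36 with the GC trend removed. The adjusted p-values were 0.115 and 0.121 with limma and 0.025 and 0.0196 with DESeq2. Of the 8 on the lower side, 3 are long noncoding RNAs (RAB4A-AS1, ENSG00000267002 and LINC01355) and ENSG00000288947 has no class in the annotation used. RAB4A-AS1, transcribed from the RAB4A promoter region, had 174, 148 and 157 with Am80 and 246, 215 and 249 with ATRA, the smallest p of the comparison (adjusted p = 0.115, limma). ENSG00000288947, ENSG00000267002 and LINC01355 differed by -0.77, -0.73 and -0.71. The others were MACIR, a regulator of macrophage inflammation (-0.44), the kinase gene PKN2 (-0.36), the ciliary chaperonin gene BBS10 (-0.44) and CNOT10 of the deadenylase complex (-0.30). The groups of all but ENSG00000288947, which had no GC value and could not be corrected, were also apart with the GC trend removed. MACIR had 189.6, 188 and 185 with Am80 and 269, 259.8 and 236 with ATRA, and 0.15 as its difference without inhibitors. Antisense genes as a class had a median of -0.12 (747 genes) and long intergenic RNAs of -0.14 (475 genes), against 0.01 in protein-coding genes. Both classes were also lower with Am80 in the libraries without inhibitors, at -0.15 and -0.10. Whether reads were counted by strand is not given in the sources used here, so reads of an antisense gene and its partner may be mixed. Exons of ENSG00000267002 overlap exons of BRCA1 on the same strand and of NBR1 on the opposite strand, so its reads may be mixed with theirs.

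Most genes for ribosomes, mitochondrial respiration and the proteasome had higher values with Am80, by small amounts. Of 75 tested cytosolic ribosomal protein genes 74 were higher, with a median of 0.23 (0.21 with the GC trend removed), and 47 had all Am80 libraries above all ATRA libraries (background 16.5%). The unadjusted p was under 0.05 in 29, all higher (background 11%, as for the lists that follow). The list mean was 0.18, 0.15 and -0.0034 with Am80 and -0.14, -0.07 and -0.11 with ATRA, apart, with Am80 replicate 3 near the middle. RPLP1 had 23873, 22763 and 21312 normalized counts with Am80 and 18593, 18249 and 16666 with ATRA, and RPS23 16152, 15936 and 13662 with Am80 and 11949, 12388 and 12227 with ATRA. RPL8 (0.39) and RPS9 (0.42) were the others named by p-value. Many ribosomal protein genes have processed copies elsewhere in the genome, so reads may be split. Of 78 nuclear respiratory chain genes 73 were higher (median 0.19, 0.19 with the GC trend removed), 27 of them at an unadjusted p under 0.05 and 0 lower. NDUFB7 of complex I had 806, 734 and 669 with Am80 and 530.1, 419.5 and 417 with ATRA, 1.62-fold. NDUFA13 differed by 0.49, and UQCRC1 and UQCRH of complex III by 0.36 and 0.30. The 13 protein genes of the mitochondrial genome had a median of -0.11 and 0 at an unadjusted p under 0.05. Of 40 proteasome genes 33 were higher (median 0.16, 0.18 with the GC trend removed). At an unadjusted p under 0.05, 15 were higher (background 11%) and 1 lower (background 7.11%). The ubiquitin receptor ADRM1 had 2075, 2053 and 1770.2 with Am80 and 1452, 1515 and 1381 with ATRA, and PSMB6, PSMB9 and PSMC4 differed by 0.33, 0.54 and 0.21. In the limma fit over 16 libraries no member of these lists had an adjusted p under 0.05. With the 6 combination libraries only, 47 ribosomal, 36 respiratory and 16 proteasome genes passed, all higher (41, 25 and 15 with the GC trend removed), against 9.53% of all genes (3.27%). Without untreated replicate 4 and Am80 replicate 2, 44, 36 and 18 passed as higher (39, 33 and 17 with the GC trend removed), against 10.9% of all genes (4.85%). In that fit 1 proteasome gene passed as lower (background 5.09%). DESeq2 called 0, 1 and 1, all higher (background 0.503%). The respiratory and ribosomal genes are short (median transcript 1510.5 and 1826 bases, against 3327 over all genes), and genes of 1000 to 2000 bases as a class had a median of 0.094. With GC and length trends both removed, the list medians were 0.20, 0.19 and 0.16.

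Stem and progenitor genes were lower with Am80. Of 20 tested (29 listed) 15 were lower, with a median of -0.11 (-0.13 with the GC trend removed). Without ATRA combination replicate 2 the median was -0.20. Of the 20, 8 were lower at an unadjusted p under 0.05 (background 7.11%) and 1 higher (background 11%). With the GC trend removed these were 6 and 0 (background 5.01% and 9.06%). DESeq2 called 3, all lower (background 0.103%). The fit of the 6 combination libraries called 6 lower and 1 higher (background 4.11% and 9.53%), or 2 and 0 with the GC trend removed (background 0.455% and 3.27%). The list mean was -0.07, -0.041 and -0.08 with Am80 and 0.16, 0.0012 and 0.035 with ATRA, the groups apart, with ATRA replicate 1 farthest. MYB, which keeps myeloid progenitors dividing, had 2450.1, 2716 and 2877 normalized counts with Am80 and 3455, 3001 and 3362 with ATRA, against a mean of 7867 in untreated cells. The difference was -0.29 (-0.44 to -0.14, adjusted p = 0.125, limma). With the GC trend removed it was -0.21 and its groups overlapped. SOX4, a factor of immature blood cells, had 2379, 2617 and 2563 with Am80 and 3416, 2827 and 3003 with ATRA. BMI1, a Polycomb protein of stem cells, differed by -0.27. Of the listed genes 5 (POU2F2, NGFR, RCOR2, PRDM11 and HLA-G) are named by the study from these samples, so they are no independent evidence of the list's direction. POU2F2 had 23, 19.2 and 20.6 with Am80 and 51.7, 48.9 and 27.3 with ATRA against 114 in untreated cells, a difference of -0.94 (-1.36 to -0.52). Its adjusted p was 0.121 (limma). MYC, counted with the ribosome biogenesis genes, went the same way, with 1826, 1744 and 1733 with Am80 and 2215, 1868 and 2268 with ATRA against 6329.8 in untreated cells. NGFR differed by 0.07 (-0.22 to 0.35). KIT had 0 or 1 read in each combination library, PRDM11 1 to 6 and HLA-G 2 to 12, too few to show a difference at this depth. RCOR2 was under the filter of 10 normalized counts.

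Myeloid differentiation genes had a median of 0.17 as deposited and 0.045 with the GC trend removed. Of 40 tested, 11 were higher and 1 lower at an unadjusted p under 0.05, against 11% and 7.11% of all genes. After removal of the GC trend these were 5 (12.5%) and 2 (5%), close to the background of 9.06% and 5.01%. AZU1, a granule protein, and CD14, a monocyte receptor, differed by 0.35 and 0.45, and by 0.15 and 0.33 with the GC trend removed, when their groups overlapped. ITGAM, which encodes the differentiation marker CD11b, had 93.2, 122 and 91.4 normalized counts with Am80 and 101, 105 and 97.8 with ATRA, a difference of 0.0027 (-0.33 to 0.34).

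The groups overlapped as deposited in KDM1A and KAT2A, the genes of the inhibitors' targets. KDM1A had 1868, 2052 and 1965 normalized counts with Am80 and 1993, 1927 and 1963 with ATRA (difference -0.00039, -0.12 to 0.12), and KAT2A 1179.5, 1233 and 1217 with Am80 and 1265, 1115 and 1247 with ATRA (0.0027, -0.17 to 0.17; -0.15 with the GC trend removed, the groups then apart). The 16 LSD1 complex genes had a median of -0.0053 and the 27 GCN5 complex genes of -0.018. Removing the GC trend gave -0.018 and 0.05, and the GCN5 list mean was then apart, at 0.034, 0.028 and 0.0079 with Am80 and -0.05, -0.024 and -0.0012 with ATRA.

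Of all 30 lists, 22 had a median above 0 as deposited and 23 with the GC trend removed, and 3 changed sign (GCN5 complex, mitosis and LXR target genes). Medians over 0.1 were found in 13 lists, and in 10 with the GC trend removed. Chaperones of the endoplasmic reticulum went from 0.08 to 0.12. HSPA5 (BiP) in that list had 43942, 43274 and 42314 normalized counts with Am80 and 36158, 40999.5 and 36653 with ATRA, and HYOU1, CALR and PDIA6 differed by 0.26, 0.18 and 0.21. Cholesterol synthesis genes went from 0.18 to 0.09 and NF-kappaB targets from 0.17 to 0.09, with IL1B at 0.28. Glycolysis and hypoxia genes had a median of 0.09 (PKM 0.27, PFKL 0.35) and lysosome genes of 0.09 (PSAP 0.34). With the GC trend removed, these medians were 0.058 and 0.074. The metallothionein and zinc response median was 0.16 (9 genes), and that of replication-dependent histone genes 0.17 (13 genes). With the GC trend removed they were 0.18 and 0.13. Of the 13 histone genes 0 had an unadjusted p under 0.05 (background 11% higher and 7.11% lower). The histone list mean overlapped between the groups. Interferon response genes had a median of -0.12 (-0.07 with the GC trend removed), but its members went both ways, with EIF2AK2, the kinase PKR, at -0.36 and OASL and BST2 at 0.83 and 0.33. The 385 ZNF zinc finger genes had a median of -0.07, and -0.016 with the GC trend removed. DNA replication, ribosome biogenesis, mitosis, coregulator and LXR target genes had medians of 0.024, 0.029, -0.05, -0.036 and 0.05 (0.05, 0.031, 0.032, -0.034 and -0.016 with the GC trend removed). Genes of retinoic acid synthesis, breakdown and binding had a median of 0.10, or 0.073 with the GC trend removed.

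**Figure D4:**
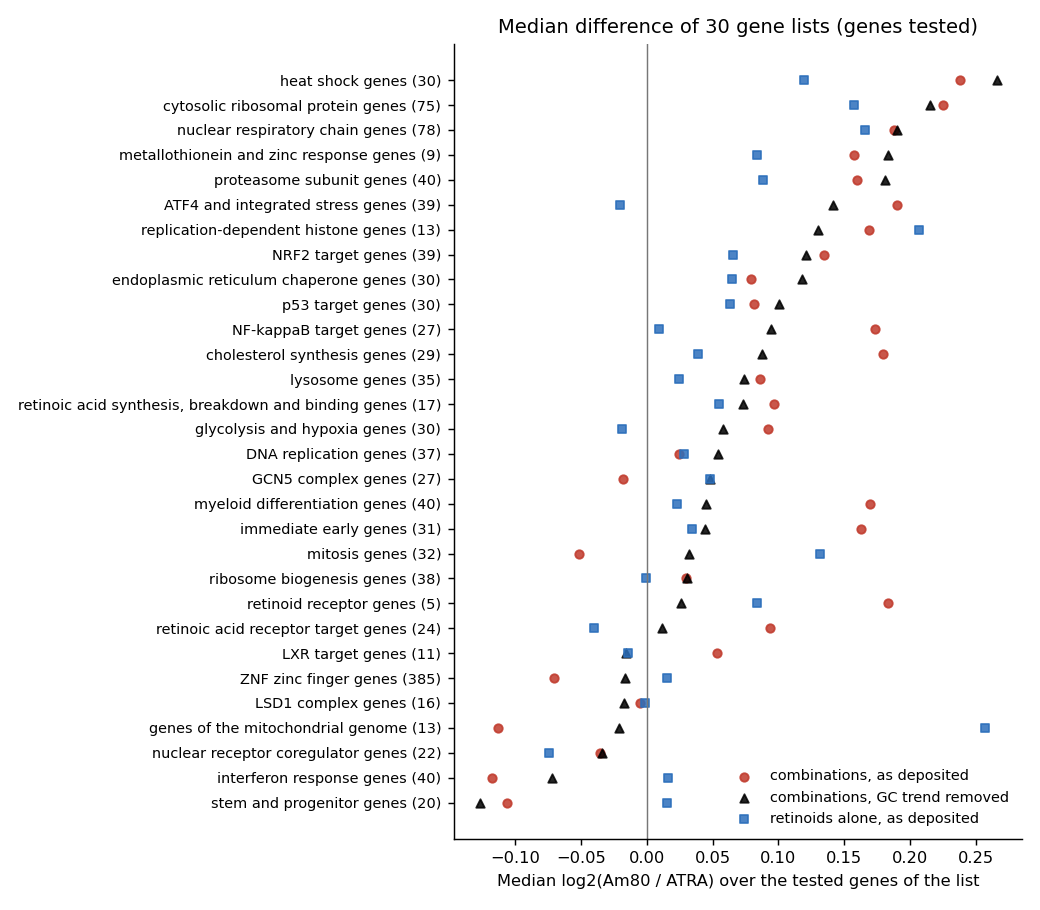
Median log2 difference between Am80 and ATRA (horizontal axis) over the tested genes of 30 lists (number of genes in parentheses), for the combinations as deposited (circles) and with the GC trend removed (triangles) and for the retinoids alone (squares). Heat shock genes lie highest (0.24 and 0.27) and stem and progenitor genes lowest once the GC trend is removed (-0.13), and the retinoid target list lies at 0.09 and 0.01.

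The libraries without inhibitors gave a separate comparison of Am80 with ATRA, on samples that the combinations do not share. There limma called 35 of 14508 genes (27 or 0.186% higher, 8 or 0.0551% lower, 0.241% in all), but 0 with the GC trend removed and 0 in 10 of the 16 fits that left out 1 library. The groups were apart in 1573 genes (10.8%) higher and 1368 (9.43%) lower. Across all tested genes the differences with and without inhibitors had a correlation of 0.136, and of 0.292 with the GC trend removed, as a description over genes, which are not independent replicates. Of the 1315 genes that were higher with Am80 in the combinations (unadjusted p under 0.05, GC trend removed), 80.8% were also higher without inhibitors, against 51.4% of all genes, and of the 727 lower ones 73.7% were also lower, against 48.6%. As deposited the shares were much nearer to those of all genes. They were 56.6% of 1601 higher genes (against 51.4%) and 56.3% of 1032 lower ones (against 48.6%). Ribosomal protein and respiratory chain genes had medians of 0.16 and 0.17 without inhibitors, with 19 of 75 and 23 of 78 higher and 0 lower at an unadjusted p under 0.05 (background 8.59%). Heat shock genes had 0.12, with 6 of 30 higher. ATF4 genes had -0.02, with 1 of 39 higher and 2 lower (background 5.42%).

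No gene passed the test of the interaction, that is, of the change in the Am80 to ATRA difference on adding the inhibitors (smallest adjusted p 0.225, limma). At an unadjusted p under 0.05, 1092 genes (7.53%) had a more positive difference with the inhibitors and 1100 (7.58%) a more negative one. edgeR called 0 genes and DESeq2 23. In the ATF4 list 17 of 39 were on the positive side and 0 on the negative, with a median of 0.21, and DDIT4 and PPP1R15A had 0.83 and 0.58. These are values as deposited, and the GC trend ran in opposite directions with and without inhibitors. With that trend removed, the ATF4 median was 0.14 with inhibitors and 0.0097 without, and DDIT4 had 0.61 and -0.032. Among 30 heat shock genes, 4 were on the positive side and 1 on the negative. On the negative side were 14 of 32 mitosis genes and 9 of 13 genes of the mitochondrial genome, with 0 positive in both lists. Their medians were 0.13 and 0.26 without inhibitors and -0.05 and -0.11 with them. After removal of the GC trend they were 0.10 and 0.23 without inhibitors and 0.032 (19 of 32 higher) and -0.022 with them. Of 20 stem and progenitor genes, 7 were on the negative side and 0 on the positive. With the GC trend removed, the median of this list was -0.010 without inhibitors and -0.13 with them.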

How the data were processed

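RNA was sequenced from OCI-AML3 cells after 3 h of treatment. The authors deposited 1 table of read counts divided by DESeq2 size factors, a normalized signal, for 62700 genes in 16 libraries. The submitters' processing notes name FastQC, cutadapt, STAR, featureCounts and DESeq2. Their versions, the genome build, the annotation and the strand setting are not given in the sources used here. The labels and the published methods name different RNA and library kits.

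Whole reads were recovered from the steps of the values (100% of values within 0.01 of a whole read). Replicates of a combination differed by more than counting noise (chi-square per degree of freedom 2.55 to 5.59). Genes with a mean of at least 10 over the 6 combination libraries were tested with limma 3.58.1 (R 4.3.3, trend) on log2(value + 1), with 1 coefficient per group over 16 libraries and Benjamini-Hochberg adjustment at 0.05. Fold changes on this scale understate those of low genes. edgeR 4.0.16 and DESeq2 1.42.0 were run on the recovered reads. GC content and length came from a GENCODE annotation and were had for 14167 of the tested genes (97.6%), and the others stayed uncorrected. The GC trend was removed per library with a natural spline of 5 degrees of freedom. Statistics were tested on simulated data.

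The comparison, the gene lists and the naming rule were chosen with earlier results of these data known. Named genes were the 8 smallest p-values in each direction among genes with a mean of at least 50 and groups apart, up to 4 members per list by p-value, the tested retinoid targets and receptors (2 targets are not reported here), and POU2F2, RCOR2, PRDM11, HLA-G, NGFR, ITGAM, KIT, KDM1A and KAT2A. Lists are described by counts and medians, with no test. Alternatives covered pseudocount, filter, scaling, GC and length, libraries left out, a replicate block and thinning to the shallowest library. Promoters and symbols came from RefSeq (GRCh38.p14) and a table of gene names, and all 62700 identifiers had a symbol or their own identifier.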

Additional observations from a re-analysis of the deposited data

Results flagged for a closer look

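Among 89 named genes, the untreated group of 4 libraries held 7 values that stood apart from the other 3 by Dixon's criterion, which chance meets in about 1 of 20 groups. In untreated replicate 4 these were AZU1 (1988 normalized counts), BBC3 (512), CYP26B1 (1.11), ENSG00000288947 (58.7), POU2F2 (78.7) and SLC1A5 (3889). In untreated replicate 3 it was TNFAIP2 (806). The combination groups, with 3 libraries each, were too small for this criterion.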

How the results depend on the processing

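For the Am80 against the ATRA combination, pseudocounts of 0.5 and 5, no filter, a filter of 50, both other scalings, both trend removals, thinning and edgeR all left 0 genes called. Calls came with only the 6 combination libraries (1979, or 541 with the GC trend removed), without untreated replicate 4 and Am80 replicate 2 (2314, or 898), an alternative chosen after seeing the data, and with DESeq2 (88). Leaving out 1 library gave 0 to 652 calls, with untreated replicate 4 at the top and Am80 replicate 2 next (241). With the replicate number as a block 704 were called, or 650 with the GC trend removed. Same-numbered combination libraries did not deviate together (correlations of -0.002, -0.015 and 0.012), so the numbers were not taken as pairs. Same-numbered libraries of other pairs of groups, which the block also spans, had correlations of -0.12 to 0.183. Whether equal numbers mark a shared batch is not known. For the retinoids alone the 35 calls became 0 without a filter, 21 after quantile normalization, 18 after scaling to total reads, 0 with the GC trend and 2 with GC and length trends removed, 411 with the replicate block (873 with the GC trend removed too), 534 without both libraries (883) and 317 with DESeq2, and leaving out 1 library gave 0 to 470 (470 without untreated replicate 4, 459 without Am80 replicate 3, 97 without ATRA replicate 3). The interaction had 23 calls with DESeq2 and 0 to 41 with 1 library left out, the highest without Am80 replicate 3.

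Genes higher at an unadjusted p under 0.05 numbered 2419 with the 6 libraries only, 2507 without both libraries and 762 to 2068 with 1 left out. Lower genes numbered 1782 without a filter, 1627 with the 6 libraries only, 1759 without both libraries and 566 to 1445 with 1 left out. The share of intervals inside 1.5-fold was 32.2% without a filter and 64.5% to 73.6% with 1 library left out. List medians ranged, with 1 library left out, from -0.035 to 0.12 for retinoid targets, from -0.20 (without ATRA combination replicate 2) to -0.06 for stem and progenitor genes, from 0.19 to 0.30 for ribosomal protein genes (0.14 after quantile normalization) and from -0.11 to -0.04 for genes lowered by both retinoids (-0.085 with total-read scaling). The cause of these shifts was not tested.

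Of 2931 values for 89 named genes under the alternatives, 81 in 16 genes changed sign. With the GC trend removed these were DHRS3 (-0.014), DHRS9 (0.073), FGR (-0.0034), HIC1 (-0.0058), ITGAM (-0.055), KAT2A (-0.15), KDM1A (0.0021), NGFR (-0.13), RARG (-0.12) and TGM2 (-0.054). With GC and length trends removed they were DHRS3 (-0.033), DHRS9 (0.052), FGR (-0.015), ITGAM (-0.040), KAT2A (-0.16), NGFR (-0.13), NRIP1 (0.018), RARG (-0.13) and TGM2 (-0.036). Scaling to total reads turned ITGAM (-0.033), KAT2A (-0.034) and TGM2 (-0.016), quantile normalization KAT2A (-0.018) and TGM2 (-0.00036), thinning CRABP2 (-0.086), ITGAM (-0.0098) and KAT2A (-0.014), and edgeR KDM1A (0.0098). With 1 library left out, the ranges that crossed 0 were those of ASB2 (-0.34 to 0.052), DHRS3 (-0.035 to 0.14), DHRS9 (-0.077 to 0.034), ITGAM (-0.13 to 0.077), KAT2A (-0.054 to 0.037), KDM1A (-0.033 to 0.034), NGFR (-0.074 to 0.20), PLAAT4 (-0.15 to 0.51), RARB (-0.052 to 0.19), RARG (-0.0023 to 0.062), STRA6 (-0.046 to 0.66) and TGM2 (-0.084 to 0.076). With 3 libraries a group, the median half-width of a 95% interval was 0.236 on the log2 scale.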
